A study of Mus musculus with 8 samples.

Results

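The 10 genes described here belong to the aryl hydrocarbon receptor (AhR) pathway and to the response to foreign compounds. They are the receptor gene Ahr, its partner Arnt, the repressors Ahrr and Tiparp, the cytochrome P450 genes Cyp1a1, Cyp1b1 and Cyp2c29, and the enzyme genes Nqo1, Por and Ephx1. They were chosen by name, with earlier results of these data known, and all 10 were found by identifier among the 37310 genes of the table. Polyadenylated RNA of mouse 2-cell embryos, grown from fertilized eggs in G1 medium, was sequenced. There were 4 libraries of embryos cultured with 6 µM triclocarban (TCC), an antibacterial compound of soaps and personal care products, and 4 libraries of control embryos cultured with an equal volume of the solvent DMSO. Mouse strain, hour of collection and number of embryos per library are not given in the labels. Nothing in the labels ties a library to its own culture or animal, so each p-value here reflects only library-to-library spread, part or all of which may be technical. The title names the maternal-to-zygotic transition and epigenetic marks as the question of the study, and no question about AhR is stated.

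AhR is a transcription factor of the bHLH-PAS family that rests in the cytoplasm in a complex with HSP90 and the cochaperone p23. After binding a ligand such as a dioxin it enters the nucleus, pairs with ARNT and binds DNA elements with the core GCGTG. Cyp1a1, Cyp1b1, Ahrr and Tiparp are textbook targets of this dimer, and the products of Ahrr and Tiparp feed back to limit the receptor. NQO1 reduces quinones, EPHX1 opens epoxides, POR passes electrons from NADPH to the microsomal P450 enzymes, and CYP2C29 is a mouse P450 known mostly from the liver.

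The table gives FPKM, the fragments of a gene divided by its transcript length and by the mapped fragments of the library, and as a value per length it can be set side by side between genes. FPKM is a share of each library, so absolute amounts per embryo are unknown, and fewer cells and less RNA per cell cannot be told apart. No read counts were used here, and depth was only roughly estimated, as 7000000 to 13600000 fragments in the TCC libraries and 11300000 to 14800000 in the controls. The groups parted on the first principal component (69.1% of the variance), with scores of -69.6 to -62.7 for TCC and 27.8, 36.5, 101.7 and 97.8 for controls 1 to 4. The controls thus lay in pairs, 1 with 2 and 3 with 4. TCC library 2, which had the fewest estimated fragments, lay away from the rest on the second component (-63.3, where the other TCC libraries were at 3.7 to 22.4). Between 11788 and 11957 genes reached 1 FPKM in a TCC library, and 12828 to 13541 in a control.

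The labelled stage was checked with marker genes. The 6 markers of the 2-cell stage that were in the table, such as Zscan4d and Zfp352, summed to 231.5 to 728.1 FPKM with TCC and 335.3 to 553.4 FPKM in controls. Single markers parted in both directions. Zfp352 was lower in every TCC library (47.8 to 139.2 FPKM) than in any control (194.0 to 250.6 FPKM). Usp17le was higher in every TCC library (15.4 to 23.2 FPKM) than in any control (3.67 to 6.03 FPKM). The other 2-cell markers overlapped between the groups. The 10 oocyte-derived markers summed to 2843, 2264, 2786 and 2625 FPKM in TCC libraries 1 to 4, and to 1781, 1584, 623 and 597.5 FPKM in controls 1 to 4. Of these, Bmp15, Ooep and Nlrp5 were higher in every TCC library than in any control. Zp3 went the other way, at 12.5 to 33.9 FPKM with TCC and 49.0 to 60.8 FPKM in controls. The remaining oocyte-derived markers overlapped between the groups. Markers of liver were at or near 0, with a highest sum of 0.2 FPKM over 6 genes. Of 12 cumulus and granulosa markers, Inha and Amh were at 0 in every library and 3 were tested, among them Cyp19a1. The list summed to 10.3 to 18.6 FPKM with TCC and 5.3 to 10.8 FPKM in controls. The 7 oviduct markers summed to 12.1 to 27.2 FPKM with TCC and 86.4 to 113.4 FPKM in controls. In controls most of that was Epcam, at 68.8 to 102.2 FPKM, against 3.36 to 5.03 FPKM with TCC. With TCC the largest was Cdh1, at 6.89 to 18.8 FPKM, against 8.22 to 17.2 FPKM in controls. Over all libraries Krt8 was at 0.23 to 1.76 FPKM and Ovgp1 at 0.23 to 3.32 FPKM. Pax8 and Foxj1 were at most 0.07 FPKM, and Wfdc2 was at 0 everywhere. The 6 sperm markers summed to 7.2 to 10.4 FPKM with TCC and 1.1 to 5.9 FPKM in controls, mostly Prm2. The 6 blood markers summed to 8.4 to 37.1 FPKM with TCC and 54.9 to 97.0 FPKM in controls, with both beta-globin genes at 0.

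Tiparp stood far above the other genes, and the classical AhR targets Cyp1a1, Cyp1b1 and Ahrr were below 1 FPKM in every library. With TCC, Ahr and Cyp2c29 were higher and Por was lower, while Arnt, Nqo1 and Tiparp did not pass the threshold. In order of mean level with TCC, Tiparp (715.7 ± 110.6 FPKM) was followed by Arnt (10.6 ± 1.46), Nqo1 (8.59 ± 1.64), Ahr (4.52 ± 1.99), Cyp2c29 (3.20 ± 0.54), Por (0.96 ± 0.11), Ephx1 (0.69 ± 0.61), Cyp1b1 (0.46 ± 0.09), Cyp1a1 (0.24 ± 0.14) and Ahrr (0.09 ± 0.07; SD, n = 4). In controls the order was Tiparp (505.5 ± 234.7 FPKM), Arnt (13.6 ± 1.45), Nqo1 (7.57 ± 0.95), Por (3.59 ± 1.42), Ahr (1.80 ± 0.75), Cyp2c29 (0.94 ± 0.66), Cyp1b1 (0.59 ± 0.24), Ephx1 (0.35 ± 0.23), Cyp1a1 (0.20 ± 0.09) and Ahrr (0.07 ± 0.07; SD, n = 4). In TCC libraries only Tiparp from Arnt, and Cyp2c29 from Por, were neighbours with no overlap between libraries. In controls Tiparp, Arnt and Nqo1 were each apart from the next, and from Por down all neighbours overlapped.

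The filter asked for 1 FPKM or more in 4 or more of the 8 libraries, and genes that met it were tested with limma on log2(FPKM + 1), with Benjamini-Hochberg adjustment over all 12941 of them and a threshold of 0.05. Of the 10 genes, 6 passed this filter. The other 4, Ahrr, Cyp1a1, Cyp1b1 and Ephx1, were too low and are given as values. Of the 6 tested, 2 were higher, where 11.3% of all tested genes were called higher, and 1 was lower, where 30.8% were called lower. The 3 calls among 6 genes stand beside 42.1% of all tested genes, so the share called is near the background. The median change of all tested genes was -0.19 on the log2(FPKM + 1) scale, and that of the 6 was 0.38. All 4 TCC libraries lay above all controls for Cyp2c29, where this held for 10.2% of tested genes, and below them for Por, where it held for 30.0%. The other 8 genes overlapped between the groups.

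**Figure D1:**
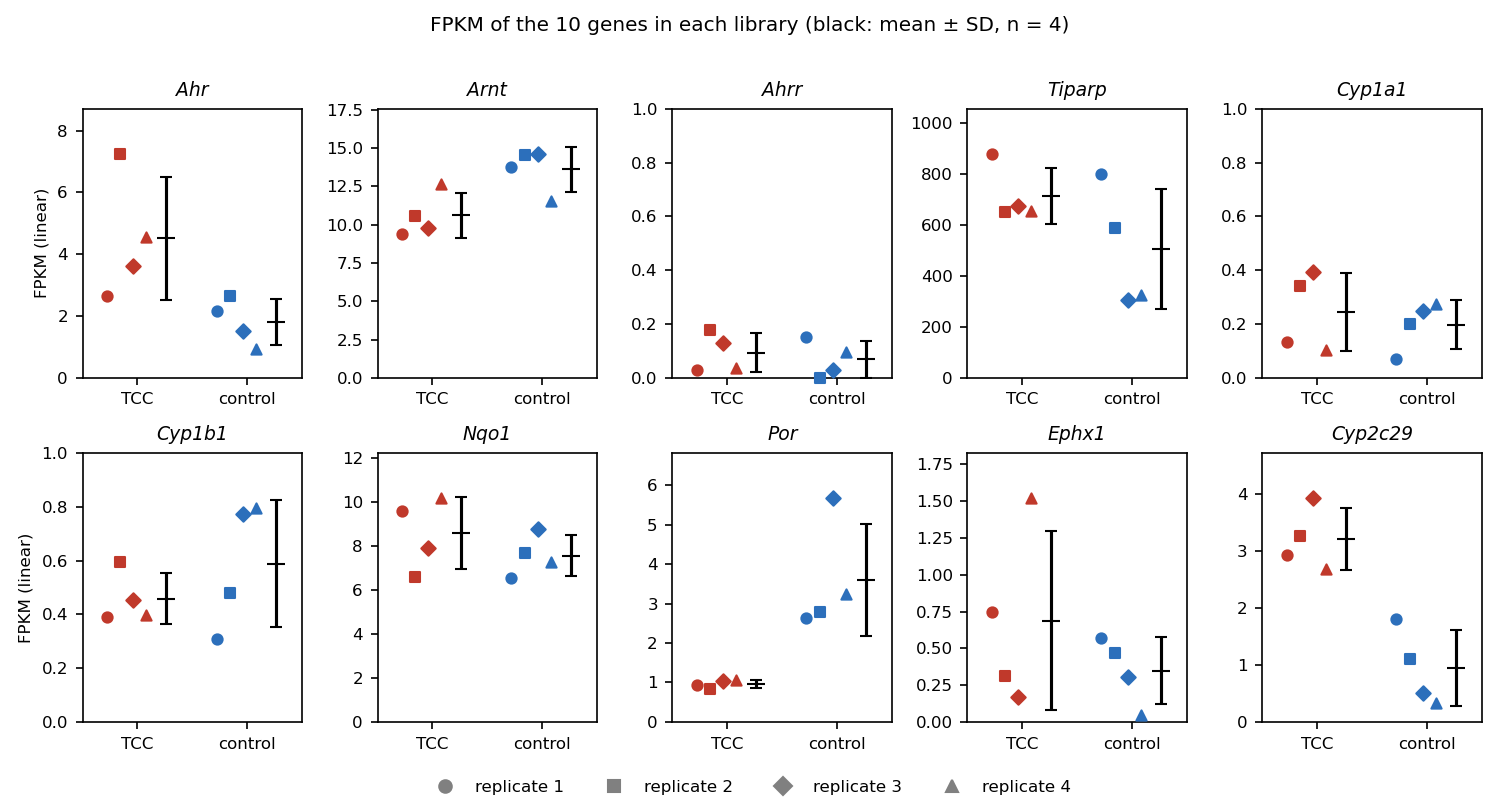
FPKM (linear axis from 0) of each of the 10 genes in the 4 TCC libraries (red, left) and the 4 control libraries (blue, right), with a symbol for each replicate number and the mean ± SD in black (n = 4 each). The groups are apart for Por (at most 1.07 FPKM with TCC, at least 2.63 in controls) and for Cyp2c29 (at least 2.67 FPKM with TCC, at most 1.81 in controls), and overlap for the other genes.

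Ahr, the receptor gene (ENSMUSG00000019256.10, chr12:35497974-35535038, minus strand, GRCm38), had 2.64, 7.25, 3.62 and 4.56 FPKM in TCC libraries 1 to 4, against 2.15, 2.65, 1.5 and 0.92 FPKM in controls 1 to 4. The groups met at a single point, since control 2 lay just above TCC library 1, and control 4 was below 1 FPKM. The log2 change was 0.95 (standard error 0.31, limma, Benjamini-Hochberg adjusted p = 0.028), and 1.15 relative to the median of all tested genes. TCC library 2 held the highest value, and without it the change was 0.74 (adjusted p = 0.057). The call was also lost without TCC library 4 (adjusted p = 0.0669), control 3 (adjusted p = 0.0655), control 4 (adjusted p = 0.0871), or controls 3 and 4 together (change 0.64, adjusted p = 0.205). A noncoding gene on the opposite strand, Gm48236, shares exon sequence with Ahr. The strand setting of the counting is not given in the sources used here, so reads from these genes cannot be told apart.

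Arnt, which encodes the partner of AhR and of the hypoxia factors (ENSMUSG00000015522.11, chr3:95434388-95497240, plus strand), had 9.41, 10.6, 9.77 and 12.7 FPKM in TCC libraries 1 to 4, against 13.7, 14.6, 14.6 and 11.5 FPKM in controls 1 to 4. TCC library 4 lay above control 4, and the other 3 TCC libraries lay below every control. The log2 change of -0.34 (standard error 0.23, 95% interval -0.85 to 0.17) did not pass the threshold (limma adjusted p = 0.272). Its sign depended on the scaling, with 0.07 after quantile normalization. Arnt was above Ahr in every library.

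Tiparp encodes a mono-ADP-ribosyltransferase that modifies AhR and limits its activity (ENSMUSG00000034640.3, chr3:65528410-65555518, plus strand). It had 881, 649.7, 675 and 657 FPKM in TCC libraries 1 to 4, against 800.0, 589, 307 and 327 FPKM in controls 1 to 4. By mean FPKM it ranked 86 with TCC and 98 in controls among all 37310 genes. Controls 1 and 2 lay within or near the range of the TCC libraries, and controls 3 and 4 lay well below it. The log2 change of 0.61 (standard error 0.33, 95% interval -0.12 to 1.34) did not pass the threshold (limma adjusted p = 0.168). Leaving out controls 1 and 2 gave a change of 1.16 (adjusted p = 0.00332), and leaving out controls 3 and 4 gave 0.05 (adjusted p = 0.907). Without control 1 alone it was 0.86 (adjusted p = 0.0394), and with median-of-ratios scaling 0.81 (adjusted p = 0.0436). The sum of oocyte-derived markers was likewise higher in controls 1 and 2 than in controls 3 and 4, and its part in the values of Ahr and Tiparp was not tested. The pseudogene 4931440P22Rik shares exon sequence with Tiparp on the opposite strand and was at 0.80 to 2.04 FPKM with TCC and 0.41 to 2.69 FPKM in controls.

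Cyp1a1, Cyp1b1 and Ahrr, the other textbook AhR targets named above, were low, below 1 FPKM in every library. Cyp1a1, the P450 gene most used as a readout of AhR activity (ENSMUSG00000032315.5, chr9:57687928-57703824, plus strand), had 0.13, 0.34, 0.39 and 0.10 FPKM in TCC libraries 1 to 4, against 0.07, 0.20, 0.25 and 0.27 FPKM in controls 1 to 4. All values were below 1 FPKM and the groups overlapped, with about 3.1 to 12.0 fragments per library with TCC and 2.9 to 9.0 in controls by the rough depth estimate. No change in Cyp1a1 was called (difference of 0.05 on the log2(FPKM + 1) scale, 95% interval -0.17 to 0.27, limma adjusted p = 0.756 in the fit with no filter). Cyp1b1, a P450 gene of steroid and hydrocarbon oxidation (ENSMUSG00000024087.2, chr17:79701537-79715061, minus strand), had 0.39, 0.59, 0.45 and 0.40 FPKM with TCC, against 0.31, 0.48, 0.77 and 0.80 FPKM in controls. These were also below 1 FPKM throughout and overlapped, at about 24.1 to 30.8 fragments with TCC and 26.7 to 59.0 in controls (difference -0.11, adjusted p = 0.612 with no filter). Ahrr, the gene of the AhR repressor (ENSMUSG00000021575.8, chr13:74211118-74292331, minus strand), had 0.03, 0.18, 0.13 and 0.04 FPKM with TCC, against 0.15, 0.00, 0.03 and 0.10 FPKM in controls, where control 2 was listed at 0. It was the lowest of the 10 genes in both groups (difference 0.03, adjusted p = 0.751 with no filter).

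The sequences upstream of these targets are shown because each holds the core GCGTG or its reverse complement, while the transcripts range from a mean of 715.7 FPKM with TCC for Tiparp to under 1 FPKM for the others. They are the 250 bases before the RefSeq start (GRCm38.p6), 5′ to 3′ on the strand of the gene, and capitals mark GCGTG on either strand. The windows are chr3:65528197-65528446 (plus) for Tiparp, chr9:57697363-57697612 (plus) for Cyp1a1, chr17:79715062-79715311 (minus) for Cyp1b1 and chr13:74292332-74292581 (minus) for Ahrr.
Tiparp: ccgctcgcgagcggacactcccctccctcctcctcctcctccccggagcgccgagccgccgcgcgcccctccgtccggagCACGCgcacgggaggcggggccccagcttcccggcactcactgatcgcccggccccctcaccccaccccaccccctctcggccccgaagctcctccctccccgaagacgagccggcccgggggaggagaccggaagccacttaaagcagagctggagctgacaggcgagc
Cyp1a1: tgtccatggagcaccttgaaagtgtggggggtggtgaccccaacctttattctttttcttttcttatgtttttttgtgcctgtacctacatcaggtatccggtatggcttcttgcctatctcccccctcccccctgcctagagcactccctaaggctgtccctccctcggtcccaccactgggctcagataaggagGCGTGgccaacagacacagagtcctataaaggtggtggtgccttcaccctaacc
Cyp1b1: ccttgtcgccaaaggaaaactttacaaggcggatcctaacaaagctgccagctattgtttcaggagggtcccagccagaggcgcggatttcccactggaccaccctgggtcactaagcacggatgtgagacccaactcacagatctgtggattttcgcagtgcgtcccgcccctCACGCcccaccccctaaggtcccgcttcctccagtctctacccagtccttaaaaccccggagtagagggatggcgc
Ahrr: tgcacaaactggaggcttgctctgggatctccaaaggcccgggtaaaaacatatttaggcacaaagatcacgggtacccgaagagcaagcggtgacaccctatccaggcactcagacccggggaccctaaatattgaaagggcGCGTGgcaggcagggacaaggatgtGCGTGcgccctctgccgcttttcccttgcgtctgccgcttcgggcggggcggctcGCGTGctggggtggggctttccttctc
Counting the last base before the start as -1, the core lay at -170 to -166 in Tiparp, -54 to -50 in Cyp1a1 and -76 to -72 in Cyp1b1, and at 3 places in Ahrr. Windows were given for 9 of the 10 genes, Ahr being the exception, and 6 of these 9 held the core in the 250 bases before to 50 after the start. Por (3 places) and Arnt (1 place) were the others, while Cyp2c29, Nqo1 and Ephx1 had no match to these letters. Among all 32851 windows of this length, 32.4% held GCGTG. That share was not matched for base composition. In the 250 bases before the start, G and C made up 32.8% for Cyp2c29 and 75.2% for Tiparp. The extended form TNGCGTG, which contains the core, was in 1 of the 9 windows, that of Ahrr, and in 5.1% of all windows. The core of the antioxidant response element bound by NRF2, TGACNNNGC, was in 1 of the 9, that of Arnt, and in 12.4% of all windows. A match is a description of the letters and not of binding.

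Por, the gene of the reductase that feeds electrons to microsomal P450 enzymes (ENSMUSG00000005514.8, chr5:135670033-135735326, plus strand), fell with TCC. It had 0.93, 0.82, 1.03 and 1.07 FPKM in TCC libraries 1 to 4, against 2.63, 2.79, 5.68 and 3.25 FPKM in controls 1 to 4. TCC libraries 1 and 2 were below 1 FPKM, and every TCC library lay below every control. The log2 change was -1.18 (standard error 0.24, limma adjusted p = 0.00262), lower in 4 of 4 TCC libraries, and -0.99 relative to the median of all tested genes. The ratio of the means was 0.268. Without controls 3 and 4 the change was -0.92 and without controls 1 and 2 it was -1.44, both past the threshold.

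Cyp2c29, a P450 gene of the Cyp2c cluster (ENSMUSG00000003053.9, chr19:39269405-39330713, plus strand), rose with TCC. It had 2.93, 3.26, 3.93 and 2.67 FPKM in TCC libraries 1 to 4, against 1.81, 1.1, 0.52 and 0.34 FPKM in controls 1 to 4. Controls 3 and 4 were below 1 FPKM, and every TCC library lay above every control. The log2 change was 1.17 (standard error 0.27, limma adjusted p = 0.00472), and 1.36 relative to all tested genes. Leaving out controls 1 and 2 gave 1.55 and leaving out controls 3 and 4 gave 0.78, past the threshold in both. The liver markers Apoa1, Ttr and Cyp3a11 were at 0 in every library. The Cyp2c genes are close copies of each other, and the pseudogene Cyp2c53-ps overlaps Cyp2c29, so a share of these reads may belong to another copy. Cyp2c40 of the same cluster had 2.62 ± 0.71 FPKM with TCC and 1.00 ± 0.55 FPKM in controls (SD, n = 4 each).

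Nqo1, the quinone reductase gene that both AhR and NRF2 can induce (ENSMUSG00000003849.8, chr8:107388225-107403206, minus strand), had 9.61, 6.6, 7.94 and 10.2 FPKM in TCC libraries 1 to 4, against 6.53, 7.67, 8.80 and 7.27 FPKM in controls 1 to 4. The groups overlapped, and the log2 change of 0.15 (standard error 0.24, 95% interval -0.38 to 0.69) did not pass the threshold (limma adjusted p = 0.649). Ephx1, the microsomal epoxide hydrolase gene (ENSMUSG00000038776.7, chr1:180976210-181020904, minus strand), had 0.75, 0.32, 0.17 and 1.52 FPKM with TCC, against 0.57, 0.47, 0.30 and 0.05 FPKM in controls. Only TCC library 4 was above 1 FPKM, and the groups overlapped (difference 0.28, adjusted p = 0.496 in the fit with no filter). A pseudogene on the same strand, Gm36961, shares exon sequence with Ephx1.

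**Figure D2:**
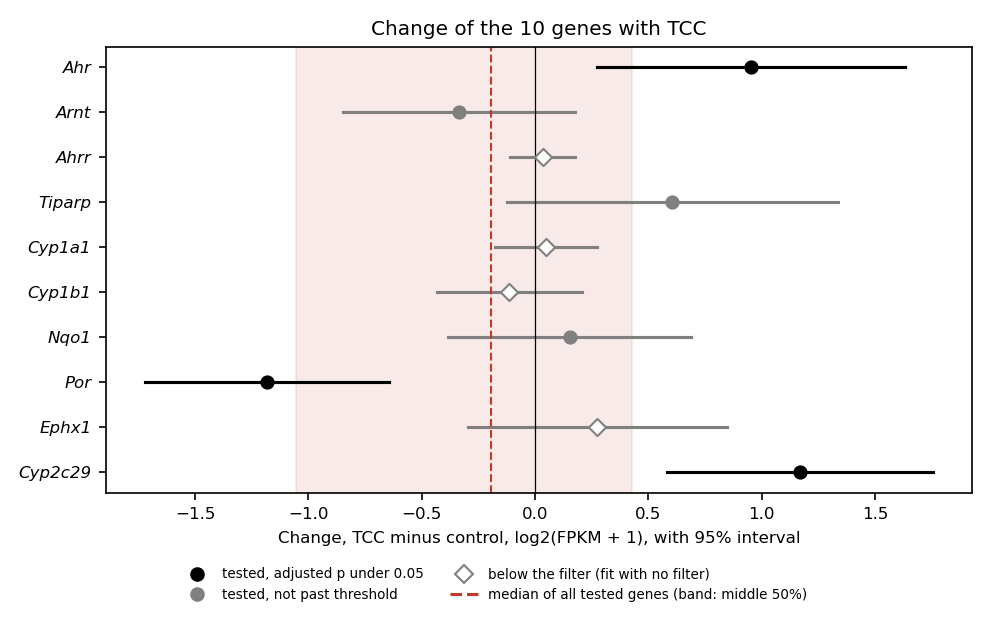
Change (TCC minus control) on the log2(FPKM + 1) scale with its 95% interval for the 10 genes, in black where the adjusted p was under 0.05, in grey where it was not, and as open diamonds for the 4 genes below the filter, from the fit with no filter. The dashed line is the median of all 12941 tested genes (-0.19) and the band their middle 50%. Ahr (0.95), Cyp2c29 (1.17) and Tiparp (0.61, not past the threshold) lie to the right of the band and Por (-1.18) just left of it.

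The pairs of controls parted many of these genes. Ahr, Tiparp, Ephx1 and Cyp2c29 were higher in both of controls 1 and 2 than in controls 3 and 4, and Cyp1a1, Cyp1b1 and Por were lower in both. Of these, Ephx1, Cyp1a1 and Cyp1b1 were below 1 FPKM in every control and did not meet the filter. Among all tested genes 43.3% had the first pattern and 30.9% the second, so this parting was general and not particular to the members. The pair in use therefore moved the size of the change in the genes that parted. Arnt, Nqo1 and Ahrr did not part in this way. Without controls 1 and 2 the change was -0.28 for Arnt and 0.07 for Nqo1. Without controls 3 and 4 it was -0.39 for Arnt and 0.23 for Nqo1.

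**Figure D3:**
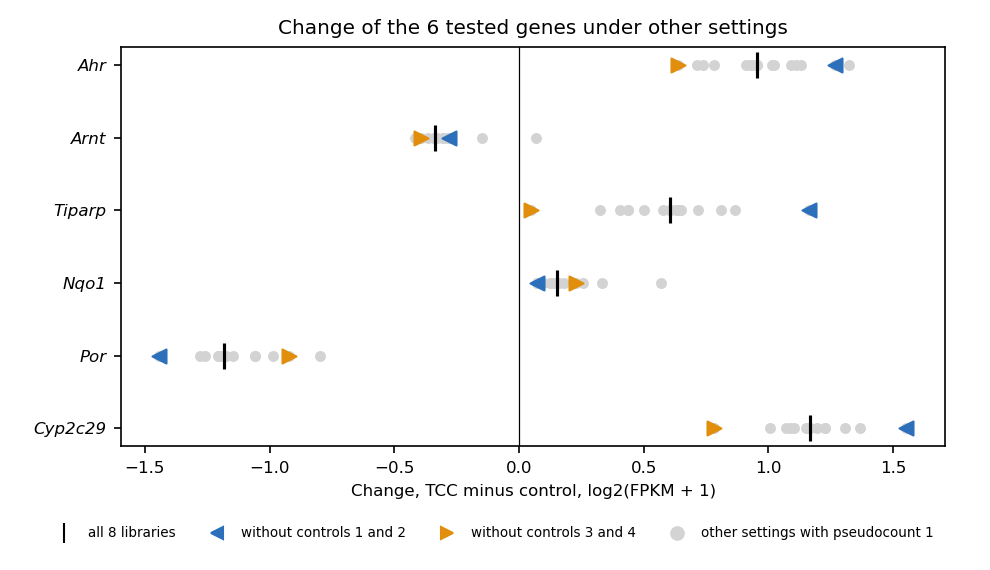
Change (TCC minus control) of the 6 tested genes on the log2(FPKM + 1) scale with all 8 libraries (black bar), without controls 1 and 2 (blue, pointing left), without controls 3 and 4 (orange, pointing right) and under the other settings with a pseudocount of 1 (grey). Tiparp spans 0.05 to 1.16, and Por stays below 0 and Ahr and Cyp2c29 above 0 in every setting shown.

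Across the 8 libraries, the genes whose log2(FPKM + 1) ran most like that of a member were found among tested protein-coding genes with a mean of at least 5 FPKM. For Ahr they were Nexn and Golph3 (Pearson r = 0.987 each). For Tiparp they were Entpd1 (0.994) and Asb8 (0.992), for Por Ppcs (0.993) and Cttn (0.992), and for Cyp2c29 Ncald (0.983) and Acp1 (0.980). Those of Arnt were Ttc19 (0.889) and Nav3 (0.887), and those of Nqo1 were Nsmce4a (0.918) and Cdc26 (0.897). These are descriptions over 8 libraries that share the group and the pairing of the controls.

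The wider AhR complex was measured through 10 genes, of which 9 were tested, with 1 higher (Ahr), 2 lower (Tbl3 among them) and 6 not past the threshold. Their median change was 0.38, beside -0.19 over all tested genes, of which 11.3% were called higher and 30.8% lower. Tbl3, whose product is known both from an AhR-dependent ubiquitin ligase and from ribosome assembly, had 1.71 ± 0.99 FPKM with TCC and 25.6 ± 5.4 FPKM in controls (SD, n = 4 each, change -3.36, limma adjusted p = 5.21e-05). The chaperone gene Hsp90ab1 had 222.9 ± 53.2 FPKM with TCC and 173 ± 46.2 FPKM in controls, and Ptges3, which encodes p23, had 303 ± 17.5 FPKM with TCC and 297.6 ± 38.3 FPKM in controls. Neither of these chaperone genes passed the threshold.

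Among bHLH-PAS relatives and coactivators, 1 of 9 tested genes was higher, 0 were lower and 8 did not pass, with a median change of 0.19, beside 11.3% of all tested genes higher and 30.8% lower. Median-of-ratios and quantile scaling each gave 3 higher, and the fit with no filter gave 0 higher and 2 lower (Npas1 and Epas1). The higher one was Arntl2, a relative of the clock gene Arntl, with 16.0 ± 9.64 FPKM with TCC and 5.06 ± 1.38 FPKM in controls (change 1.32, limma adjusted p = 0.0238). Its call was lost without any of TCC libraries 3 and 4 and controls 2 and 3 (adjusted p = 0.0562 to 0.0762), and without either pair of controls (adjusted p = 0.0666 without controls 1 and 2, 0.106 without controls 3 and 4). Hif1a, the hypoxia factor that also pairs with ARNT, had 50.7 ± 19.96 FPKM with TCC and 27.9 ± 11.4 FPKM in controls, which did not pass (change 0.86, adjusted p = 0.0679).

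Of 15 genes in a list of AhR and foreign-compound targets, 3 were tested (Tiparp, Nqo1 and Nfe2l2) and none of these passed the limma threshold, against 42.1% of all tested genes. At an unadjusted p under 0.05 the count was also 0. The number past the threshold was 1 (Tiparp) with median-of-ratios scaling, without control 1 and without controls 1 and 2. The fit with no filter left out genes at 0 in every library, and so Il1b of this list. In it 2 of the other genes of the list were called higher, Gsta1 and Serpinb2, where 4.05% of the 28046 genes of that fit were. Of the list, 10 of the 15 were below 1 FPKM in every library. The P450 gene Cyp1a2 reached at most 0.12 FPKM with TCC and 0.32 FPKM in controls, and Il1b was at 0 throughout. Gsta1, a glutathione transferase gene, had 0.22 to 1.17 FPKM with TCC and 0 to 0.07 FPKM in controls (difference 0.64, limma adjusted p = 0.0418 with no filter). Serpinb2, a plasminogen activator inhibitor gene, had 0.14 to 0.23 FPKM with TCC and 0.04 to 0.11 FPKM in controls (difference 0.15, adjusted p = 0.043 with no filter). In both, every TCC library lay above every control, at levels below the filter. This pattern held for 10.2% of tested genes, and its share among genes below the filter was not counted. Both genes were named after their values were seen. Receptors of foreign compounds were also low. Nr1i2, the gene of the receptor PXR, was at 0.29 to 0.92 FPKM with TCC and 0 to 0.40 FPKM in controls, and Nr1i3, the gene of the receptor CAR, was at 0 to 0.06 FPKM with TCC and 0.37 to 0.81 FPKM in controls. For Nr1i3 every TCC library lay below every control, at levels below the filter. Such an order held for 30.0% of tested genes, and its share among genes below the filter was not counted. In this list of 11 receptors 3 were tested and 0 passed in limma, against 42.1% of all tested genes. The highest was Pparg, a receptor of fatty acid ligands, at 6.90 ± 4.13 FPKM with TCC and 3.11 ± 2.37 FPKM in controls (SD, n = 4 each). At an unadjusted p under 0.05 the count was 1, for Rxra, whose values of 0.42 to 1.12 FPKM with TCC and 0.95 to 3.19 FPKM in controls overlapped. Under other settings the number of receptors called lower was 1 with no filter, with a replicate block and with library weights. The number called higher was 1 with quantile normalization, without controls 1 and 2 and without TCC library 2.

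P450 genes of families 1 to 4 were mostly silent. Of 72 in the table, 51 were below 1 FPKM in every library, 19 of which were at 0, and 13 were tested. Of these 13, 5 were higher, 2 lower and 6 not past the threshold, with a median change of 0.71, beside 11.3% of all tested genes higher and 30.8% lower. The fit with no filter left out genes at 0 in every library, among them 19 of these 72. Of the rest, 1 was higher and 7 were lower in that fit, where 4.05% and 15.7% of all its genes were. Besides Cyp2c29, Cyp2c40 rose (change 0.87, limma adjusted p = 0.016), and so did Cyp2r1, a vitamin D 25-hydroxylase gene, at 5.23 ± 1.31 FPKM with TCC and 2.21 ± 1.32 FPKM in controls (SD, n = 4 each, change 1.03, adjusted p = 0.0278). The calls of Cyp2c40 and Cyp2r1 were lost without control 3 (adjusted p = 0.0505 and 0.0687) and without control 4 (adjusted p = 0.0502 and 0.0827), and without some TCC libraries. Leaving out controls 3 and 4 left 1 higher gene, as did leaving out control 3, control 4 or TCC library 3 alone. The count was 2 without TCC library 1 or 4 and 8 without controls 1 and 2. Cyp2c23, an arachidonic acid epoxygenase gene, fell to 0.34 ± 0.06 FPKM with TCC, against 3.94 ± 1.81 FPKM in controls (change -1.81, adjusted p = 0.000341). Cyp2c23 met the filter only through the controls. Cyp4f40 fell to 0.94 ± 0.17 FPKM with TCC, against 3.20 ± 0.43 FPKM in controls (change -1.12, adjusted p = 0.00129). Of 7 tested genes of other P450 families, 1 rose (Cyp19a1) and 1 fell (Cyp51), beside 11.3% of all tested genes higher and 30.8% lower. Cyp19a1, the aromatase gene and also a granulosa marker, had 8.33 ± 2.44 FPKM with TCC and 2.34 ± 1.52 FPKM in controls (adjusted p = 0.00323). Of the other granulosa markers, Fshr was at 1.49 to 4.75 FPKM with TCC and 0.16 to 2.57 FPKM in controls, Tnfaip6 was at 0.23 to 0.49 FPKM with TCC and 1.53 to 5.01 FPKM in controls, and Amh and Inha were at 0. The part of such cells in these values was not tested. Cyp51, of sterol synthesis, had 2.46 ± 0.62 FPKM with TCC and 12.2 ± 3.84 FPKM in controls (adjusted p = 0.000372).

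**Figure D4:**
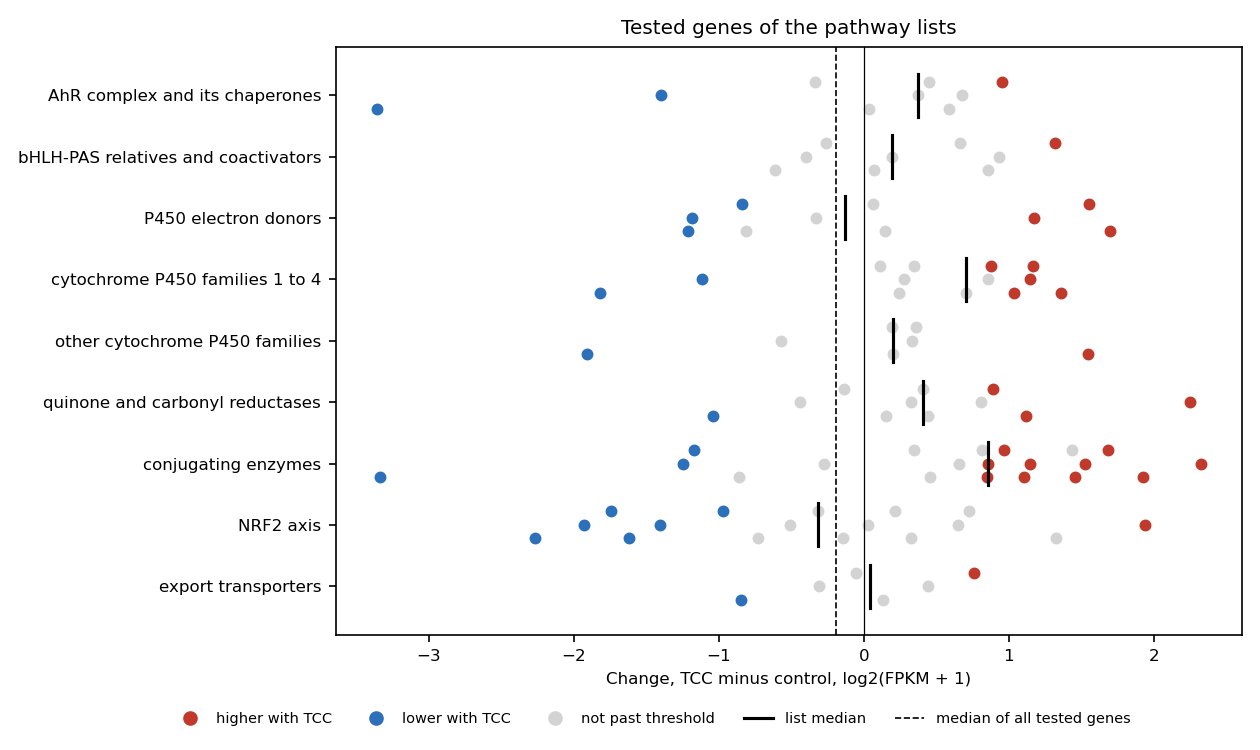
Change (TCC minus control) on the log2(FPKM + 1) scale of each tested gene in 9 gene lists, in red where higher with TCC, in blue where lower and in grey where not past the threshold, with the median of each list as a black bar and that of all tested genes as a dashed line (-0.19). Electron donors lie on both sides (3 higher, 3 lower), conjugating enzymes mostly to the right (10 higher, 3 lower) and the NRF2 axis on both sides (1 higher, 6 lower).

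Genes that pass electrons to P450 enzymes went both ways, with 3 of 10 tested members higher, 3 lower (Por among them) and 4 not past the threshold, and a median change of -0.13, beside 11.3% of all tested genes higher and 30.8% lower. Fdx1, the ferredoxin of mitochondrial P450 enzymes, had 67.9 ± 3.45 FPKM with TCC and 20.9 ± 6.41 FPKM in controls (SD, n = 4 each, change 1.70, limma adjusted p = 0.000473). Cyb5a, the gene of microsomal cytochrome b5, rose by 1.55 (69.5 ± 5.15 FPKM with TCC, 24.6 ± 10.4 FPKM in controls, adjusted p = 0.00185). Cyb5b, its form of the outer mitochondrial membrane, rose by 1.17 (adjusted p = 0.0121), with an adjusted p of 0.0921 without controls 3 and 4. Pgrmc1, which encodes a haem-binding partner of P450 enzymes, fell to 17.4 ± 3.87 FPKM with TCC, against 41.6 ± 9.57 FPKM in controls (change -1.21, adjusted p = 0.00424). Fdx1l, a ferredoxin gene of iron-sulphur assembly, changed by -0.84 (adjusted p = 0.0292), and the call was lost without TCC library 3 (0.0938) or 4 (0.0841), without control 3 (0.0824), control 4 (0.0788) or both (0.176), and after median-of-ratios (0.0885) or quantile (0.231) scaling.

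Conjugating enzymes were higher in 10 of 20 tested members, lower in 3 and not past the threshold in 7, with a median change of 0.85, beside 11.3% of all tested genes higher and 30.8% lower. Of 52 in the table, 24 were below 1 FPKM in every library. Gsta4, a glutathione transferase of lipid aldehydes, had 46.7 ± 11.6 FPKM with TCC and 11.2 ± 0.67 FPKM in controls (SD, n = 4 each, change 1.92, limma adjusted p = 0.00022). Mgst3, a microsomal glutathione transferase, had 342 ± 105.9 FPKM with TCC and 78.6 ± 52.0 FPKM in controls (adjusted p = 0.00253), and the N-acetyltransferase gene Nat2 had 3.09 ± 1.38 FPKM with TCC and 0.47 ± 0.32 FPKM in controls (adjusted p = 0.00146). Nat2 was below 1 FPKM in every control, so it met the filter only through the TCC libraries, where it was higher. Sult2b1, a sterol sulphotransferase gene, fell to 0.50 ± 0.39 FPKM with TCC, against 17.5 ± 13.1 FPKM in controls (change -3.33, adjusted p = 0.000341). Sult2b1 met the filter only through the controls. Ugdh, which makes the UDP-glucuronic acid used in glucuronidation, fell to 2.08 ± 0.20 FPKM with TCC, against 6.32 ± 0.86 FPKM in controls (adjusted p = 0.00114). Gsto1 changed by -1.17 (adjusted p = 0.0319), a call lost without TCC library 1 (0.0794) or 2 (0.0763) without control 3 (0.0931) or 4 (0.0785), and after median-of-ratios (0.075) or quantile (0.15) scaling. Only 5 members were called higher when control 3, control 4, both of these or TCC library 1 was left out, and 6 when TCC library 3 or 4 was. The sum of the oocyte-derived markers, though not each of them, was also higher with TCC and in controls 1 and 2. Its part in these counts was not tested. Copies within the glutathione transferase families share sequence, so their values are uncertain.

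Quinone and carbonyl reductases had 3 of 11 tested members higher, 1 lower and 7 not past the threshold, with a median change of 0.41, beside 11.3% of all tested genes higher and 30.8% lower. Akr1b3, the aldose reductase gene, had 255 ± 126.8 FPKM with TCC and 51.7 ± 30.2 FPKM in controls (SD, n = 4 each, change 2.25, limma adjusted p = 0.0069), and 0.104 without controls 3 and 4. Akr1b8 had 6.91 ± 3.02 FPKM with TCC and 2.47 ± 0.25 FPKM in controls (adjusted p = 0.00854), and Akr1b7, a close relative, fell to 0.14 ± 0.13 FPKM with TCC, against 1.33 ± 0.15 FPKM in controls (adjusted p = 0.000858). Akr1b7 met the filter only through the controls. The mitochondrial aldehyde dehydrogenase gene Aldh2 passed narrowly (change 0.89, adjusted p = 0.0493), and leaving out any single library other than control 1 ended the call (adjusted p = 0.0518 to 0.148). Of 4 epoxide hydrolase genes only Ephx4 was tested. It had 0.94 ± 0.41 FPKM with TCC and 2.03 ± 0.78 FPKM in controls and did not pass (adjusted p = 0.0661). The number of these genes called lower was 1 with no filter, without control 1 and without controls 1 and 2. Ephx3, below the filter, was at 0.06 to 0.53 FPKM with TCC and 0.68 to 1.32 FPKM in controls. Every TCC library lay below every control for Ephx3, which held for 30.0% of tested genes.

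In the NRF2 axis, the other route to Nqo1, 1 of 17 tested genes was higher and 6 were lower, with a median change of -0.32, beside 11.3% of all tested genes higher and 30.8% lower. Median-of-ratios scaling gave 4 higher and 6 lower, and quantile normalization gave 3 higher and 4 lower. The number higher was 0 to 3 when single libraries were left out. Nfe2l2, the gene of NRF2 itself, had 10.4 ± 3.10 FPKM with TCC and 12.9 ± 1.96 FPKM in controls (SD, n = 4 each) and did not pass the threshold. Bach1, a repressor of NRF2 targets, fell to 4.63 ± 1.01 FPKM with TCC, against 20.3 ± 2.71 FPKM in controls (change -1.93, limma adjusted p = 0.000174). Mafk, a small MAF partner of both, fell to 1.04 ± 0.38 FPKM with TCC, against 5.39 ± 1.74 FPKM in controls, and Pgd, of the pentose phosphate pathway, fell to 6.29 ± 0.54 FPKM with TCC, against 24.01 ± 6.51 FPKM in controls. Bach2, a relative of Bach1, had 211.8 ± 100.3 FPKM with TCC and 65.4 ± 50.7 FPKM in controls (adjusted p = 0.0283). Its call was lost without any of TCC libraries 1, 3 and 4 (adjusted p = 0.0834, 0.0683 and 0.0657) and without control 3 (0.073) or 4 (0.0707). Of 6 tested export transporters 1 was higher and 1 lower, beside 11.3% and 30.8% of all tested genes, and 4 did not pass. Abcb4 was the higher one (change 0.76, adjusted p = 0.0406) and Abcc5 the lower one (change -0.85, adjusted p = 0.0332). Neither call held without control 3 (adjusted p = 0.0998 and 0.0968) or without control 4 (0.125 and 0.0839), and most other leave-outs ended them too.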

How the data were processed

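Polyadenylated RNA of 2-cell embryos was sequenced in 4 TCC and 4 control libraries, and the authors deposited 1 table of FPKM values for 37310 genes. The submitters' processing notes name STAR, StringTie, featureCounts, DESeq2 1.30.1 and mm10 with no role. How FPKM was computed, with which annotation, strand setting and handling of multi-mapping reads, was not given in the sources used here. The labels' protocols describe both a bulk RNA kit and a cDNA preamplification, which can raise the error of low transcripts, and name no molecular identifiers.

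Columns were matched to libraries by the sample description, and no libraries were identical. Identifiers were matched to GENCODE M21 (GRCm38): 32620 (87.4%) had a symbol, and 95.0% of those tested. Counts could not be recovered. A single fragment was set to the commonest value of FPKM times exon length, but just 5.7 to 8.0% of low values then lay within 0.02 of whole fragments, where chance gives 4%, so depths and fragment numbers are rough. No count test was run.

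Changes were tested in R 4.3.3 by limma 3.58.1, with lmFit and trended eBayes, on log2(FPKM + 1), TCC minus control, two-sided, 6 residual degrees of freedom, with Benjamini-Hochberg adjustment. This scale understates changes of low genes. On data simulated from the 12941 genes of this comparison 8% of 100 genes given a change of 1 on the log2 scale were called, and 70% of 100 given a change of 2, with 5 false calls. Only these genes were given a change, and they were drawn from genes of higher level. In the real data 42.1% of tested genes were called, so the adjusted threshold was stricter in the simulation. These shares are therefore not the power of the real comparison. Promoter windows were those of RefSeq (GRCm38.p6).

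The members, the 13 gene lists and the tests were chosen with earlier results of these data known. The text names the 10 members, up to 3 genes in each direction per list with the smallest adjusted p or, where none passed, the one with the highest level, and the 2 genes most like each tested member. Genes named outside this rule (Hsp90ab1, Ptges3, Hif1a, Cyp1a2, Il1b, Gsta1, Serpinb2, Fshr, Tnfaip6, Nr1i2, Nr1i3, Rxra, Nfe2l2, Npas1, Epas1, Ephx3) were chosen after their values were seen. A gene that the rule takes is not reported here. Alternatives were other pseudocounts (0.1 and 5), filters and scalings, library weights, a replicate block, and leaving out libraries or pairs of controls.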

Additional observations from a re-analysis of the deposited data

Results flagged for a closer look

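Among 42 genes that the naming rule took, the 84 groups of 4 libraries were screened for a library far from the other 3, which chance gives in about 5% of groups, and 4 were found. Tiparp was highest in TCC library 1, at 880.9 FPKM, where the nearest TCC library had 675 FPKM. Aldh2 was highest in TCC library 2, at 6.05 FPKM, with the nearest at 3.59 FPKM. Gsta4 was lowest in the same library, at 29.3 FPKM, with the nearest at 50.9 FPKM, and TCC library 2 had the lowest estimated depth of the 8 libraries. Nat2 was highest in TCC library 1, at 5.15 FPKM, with the nearest at 2.67 FPKM.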

How the results depend on the processing

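The directions of Ahr, Tiparp, Nqo1, Por and Cyp2c29 held under each alternative that could be fitted, and Arnt turned only with quantile normalization (0.068). Por and Cyp2c29 passed the threshold under all 18, with adjusted p of 0.00124 to 0.0268 and of 0.000555 to 0.0441. Ahr passed under 12 of 18, and its other lost call was with no filter (adjusted p = 0.0729). Tiparp passed under 3 of 19. The log2 change of Por ran from -1.73 with a pseudocount of 0.1 to -0.51 with a pseudocount of 5. The number of members called higher was 1 with no filter, 0 with a mean of at least 5 FPKM, 1 without controls 3 and 4, and 1 to 3 when single libraries were left out. The number called lower was 0 with a mean of at least 5 FPKM, since that filter removed Ahr, Por and Cyp2c29. It was 1 to 1 without single libraries. Of all tested genes, 1466 were higher (26.9% of those called), 2258 with median-of-ratios scaling (40.1%), 2915 with quantile normalization (50.6%), 2838 without controls 1 and 2, 695 without controls 3 and 4, and 953 to 1860 without single libraries. The number lower was 3981, 2487 with a mean of at least 5 FPKM, and 3469 to 4180 without single libraries. The median change of all tested genes was -0.02 with median-of-ratios scaling and 0.14 with quantile normalization. Of 494 list counts under alternatives, 102 moved by over 1.5 times. Of 33 called genes that the naming rule took, 20 kept the call in every setting fitted, and none changed direction.

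The labels do not say whether the replicate numbers pair the libraries, and the values do not settle it. Same-numbered libraries correlated by 0.05 to 0.34 in their deviations from the group means, over 0.1 in 2 of 4 pairs. Of the 4 TCC libraries 3 correlated best with the control of their own number, and 3 of the 4 controls did so with the TCC library of theirs. The main fit used no block. With the replicate block, 1544 genes were higher and 4061 lower, 2 members were higher (Ahr, adjusted p = 0.0239, and Cyp2c29, 0.00755) and 1 lower (Por, 0.00459). The calls of Fdx1l (0.0544) and Abcb4 (0.0539) were lost with the block, and no other of the 33 was. Transcripts below 1 FPKM rest on few fragments, which limits what can be said of Cyp1a1, Cyp1b1, Ahrr and Ephx1.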
